A study of Homo sapiens with 16 samples.

Results

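Protein phosphatases remove phosphate groups from proteins or phospholipids, and their genes were taken here from a table of Ago2 binding sites by their gene symbols (PPP followed by a digit, PPM1, DUSP, PTPN, PTPR, PTP4A, MTMR and SSH). The rule found 24 of 2213 genes and 52 of 4768 listed peaks. A pair of overlapping PTPN12 peaks had identical values and was counted once, which left 51 of 4718 peaks with distinct values. The genes were 8 of protein phosphatase 1 (PP1), 4 of PP2A, 2 of PP4 and PP6, and 10 of the tyrosine, dual-specificity and myotubularin families. The PPM1 part of the rule matched 0 genes.

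The material was 293S, a human embryonic kidney line grown in the same way for every group. Cells were given 1 µM hippuristanol for 30 min, against untreated cells, with 2 cultures of each kind. Libraries of a treatment with the same replicate number in their titles were taken to come from 1 culture, which the titles do not state. On this reading each culture gave 1 RNA-seq library and 3 CLIP libraries, made with Ago2 antibodies from 3 suppliers. In all, 6 CLIP libraries came from hippuristanol-treated cells and 6 from untreated cells. In CLIP, RNA is crosslinked to the protein that binds it, recovered with an antibody to that protein, and sequenced. The deposited table gives each Ago2 peak 1 log average over both treatments and 1 log ratio of hippuristanol over untreated, pooled over libraries. The labels and headers do not say which logarithm was used, so values stay in the authors' log units and are not turned into folds. Pooling left no replicate check and no test between treatments, and the depth of each library is unknown. RNA-seq values were not used here, so a change in Ago2 bound per RNA and a change in the amount of RNA cannot be told apart. Of 4 genes marking this line, NEFL and LIN28B had peaks, and 0 of 8 markers of other cell types had one, although a peak shows RNA bound by Ago2 and not its level.

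MicroRNAs reach partly complementary mRNAs bound to Ago2, usually in the 3′ untranslated region (3′ UTR), where pairing of the microRNA seed represses the mRNA. Hippuristanol blocks eIF4A, the helicase that opens mRNA 5′ ends for the ribosome. PP1 and PP2A are serine and threonine phosphatases in which a few catalytic subunits join many regulatory subunits that choose the substrate. One of the PP1 regulators, PPP1R15B, directs PP1 to the translation initiation factor eIF2 alpha and so sustains the initiation of protein synthesis. Tyrosine phosphatases act on signalling proteins, and dual-specificity phosphatases act largely on MAP kinases.

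PPP1CC and PPP1R15B, the most densely bound members, are shown first by the seed matches in their 3′ UTRs. The mature microRNAs whose seeds matched either gene, from RefSeq on GRCh38.p14, are printed 5′ to 3′ with the seed, bases 2 to 8, in capitals.
hsa-let-7a-5p: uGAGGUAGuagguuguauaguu
hsa-miR-17-5p: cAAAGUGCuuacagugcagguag
hsa-miR-19b-3p: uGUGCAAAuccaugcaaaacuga
hsa-miR-10a-5p: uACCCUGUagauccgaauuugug
hsa-miR-103a-3p: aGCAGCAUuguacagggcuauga
Their matches, from GENCODE 29 transcripts, are printed 5′ to 3′ on the mRNA strand, with the 7 bases complementary to the seed in capitals and 9 bases on either side.
PPP1R15B, let-7, first site: tagcatacaCTACCTCttacctgag
PPP1R15B, let-7, second site: acagggttaCTACCTCagtttacaa
PPP1R15B, miR-17 family: tgtcattttGCACTTTcaaaactta
PPP1R15B, miR-19: agttgtcatTTTGCACtttcaaaac
PPP1R15B, miR-10: gaagtgcttACAGGGTtactacctc
PPP1CC, miR-103 family: tgtatacacATGCTGCcttcttggg

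The 5 matches of PPP1R15B lay on the minus strand of chromosome 1 in a 3′ UTR of 2705 nt, and belonged to 4 of the 9 microRNA families searched. In GRCh38 the printed stretches were chr1:204406045-204406069 and chr1:204404644-204404668 for let-7, chr1:204405772-204405796 for miR-17, chr1:204405775-204405799 for miR-19 and chr1:204404653-204404677 for miR-10. The miR-17 and miR-19 matches shared 4 bases. The second let-7 site is followed by an A, which makes an 8-base match. PPP1CC had 1 match in a 3′ UTR of 1396 nt, at chr12:110720335-110720359 on the minus strand, and 0 matches in the 226 nt 3′ UTR of its other annotated transcript. The peaks below are placed on hg19, so these sites were not placed relative to the peaks.

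PPP1CC, which encodes the gamma catalytic subunit of PP1, had 12 peaks with mostly high log ratios. Their median was 0.90, and the quartiles were 0.36 and 1.53. Of the 12, 10 lay above 0.17, the median over all genes, called the median gene below. Of all 4718 peaks, 2316 lay above it. The PPP1CC median was exceeded by 4 of the 160 genes that had at least 5 peaks, whose own median was 0.21. A log ratio above 1 was listed for 5 of the 12 PPP1CC peaks (41.7%), against 11.3% of all peaks in the table. A log ratio past 1 is the size used here in place of a call, and such counts have no replicate error.

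The PPP1CC peaks ran from the 5′ UTR to the 3′ UTR on the minus strand of chromosome 12 (hg19). In the 5′ UTR, the authors' deposited table listed log ratios of 0.52 at chr12:111180613-111180645 and 0.39 at the abutting chr12:111180540-111180612. In the coding sequence, the authors' deposited table listed 0.90, 1.69 and 0.91 for 3 abutting peaks from chr12:111168507-111168551 through chr12:111168455-111168506 to chr12:111168423-111168454, given 5′ to 3′. A further coding peak at chr12:111159969-111160008 had −0.68 in the authors' deposited table, the lowest log ratio of the gene. Thus peaks of 1 coding sequence lay on both sides of the median gene.

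Along the 3′ UTR of PPP1CC the values went from high to near 0 and back to the highest. The most 5′ of these peaks had a log ratio of 1.10 at chr12:111158699-111158781, and the next 1.48 at chr12:111158480-111158505, in the authors' deposited table. A pair that overlapped by 14 nt followed, with 0.28 at chr12:111158401-111158423 and −0.08 at chr12:111158369-111158414 in the authors' deposited table. The final pair, which overlapped by 16 nt, held 2.11 at chr12:111157737-111157784 and 1.69 at chr12:111157721-111157752 in the authors' deposited table. The final pair was annotated to another transcript (NM_001244974) than the other 10 peaks (NM_002710). By class the medians were 1.29 over 6 peaks of the 3′ UTR, 0.90 over 4 coding peaks and 0.46 over 2 peaks of the 5′ UTR, with overlapping ranges. The gene's log averages lay between −7.78 and −6.79 in the authors' deposited table, and its median of −7.23 was above that of 25.5% of all genes. All 12 of its peaks lay below −6.76, the median log average of all peaks.

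**Figure D1:**
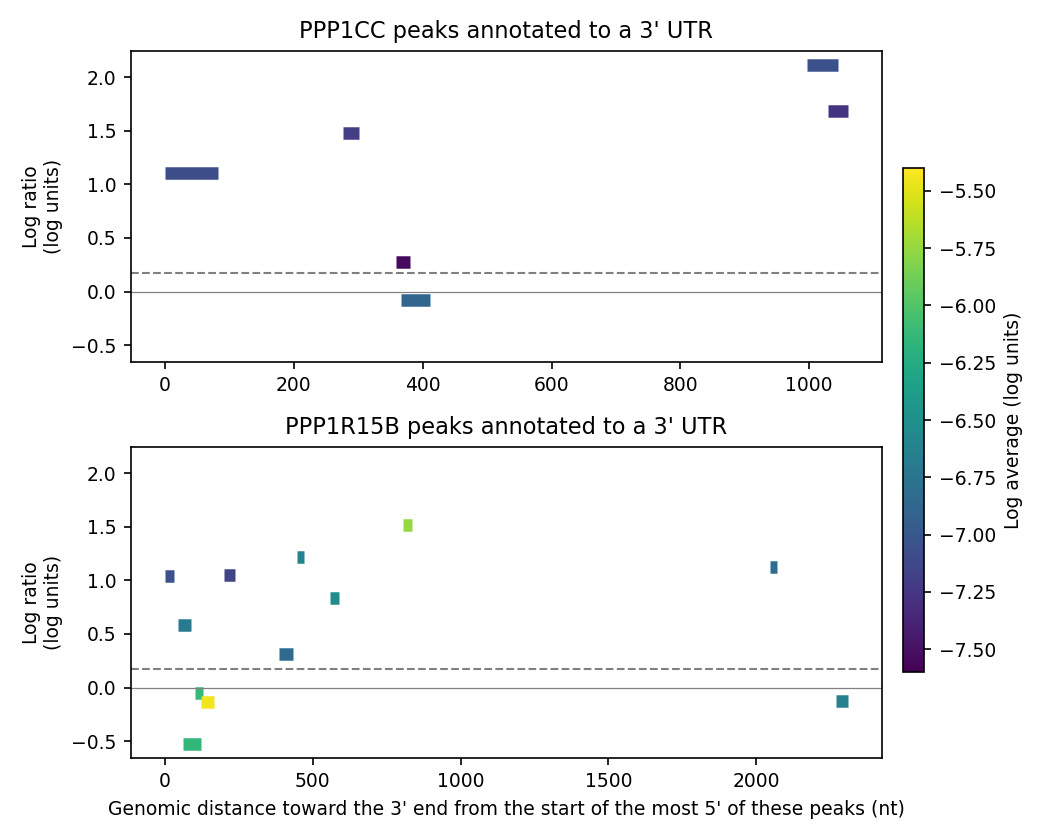
Log ratio (y axis, hippuristanol over untreated, authors' log units) of the peaks annotated to a 3′ UTR in PPP1CC (above) and PPP1R15B (below), against genomic distance in nt toward the 3′ end from the most 5′ of these peaks (x axis), with bar length for peak length and colour for log average. The dashed line marks the median gene, 0.17. In PPP1CC 1 overlapping pair lies near 0 and the pair farthest 3′ is highest at 2.11 and 1.69. In PPP1R15B the overlapping cluster, which holds the peak with the highest log average, lies mostly below 0. The peak with the second highest log average lies outside it, at 1.51.

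PPP1R15B, the constitutive regulator that brings PP1 to eIF2 alpha, also had 12 peaks, all in the 3′ UTR on the minus strand of chromosome 1. Their median log ratio was 0.71, with quartiles of −0.07 and 1.07, and 8 of the 12 lay above the median gene. As in PPP1CC, 5 of the 12 peaks were above 1, and 4 were below 0. Of all 4718 peaks, 2316 lay above the median gene and 1931 were below 0. The PPP1R15B median was exceeded by 13 of the 160 genes that had at least 5 peaks.

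A cluster of 4 overlapping peaks over 123 nt near the 5′ side held 3 of the 4 PPP1R15B peaks below 0. It lay at chr1:204374885-204375007 (hg19), and, 5′ to 3′, the authors' deposited table listed log ratios of 0.58, −0.52, −0.05 and −0.14. The log averages of these peaks were −6.70, −6.15, −6.11 and −5.45 in the authors' deposited table, the last being the highest of the gene. Reads may be shared within the cluster, so its 4 values are not separate measurements. Outside the cluster, 7 of 8 peaks lay above the median gene. The peak on its 5′ side had 1.04 at chr1:204375022-204375052 and the peak on its 3′ side 1.05 at chr1:204374814-204374854 in the authors' deposited table, so the neighbours of the cluster were high.

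Farther toward the 3′ end, PPP1R15B peaks were mostly high. The authors' deposited table listed 0.31 at chr1:204374618-204374666, 1.22 at chr1:204374581-204374607 and 0.83 at chr1:204374463-204374494. The peak with the highest log ratio of the gene, 1.51 at chr1:204374218-204374246, also had a log average of −5.75 in the authors' deposited table, the second highest of the gene. In the authors' deposited table the other peaks above 1 had log averages from −7.16 to −6.65, below the gene's median of −6.64. Of the peaks above 1, only that one thus lay above the gene's median log average, although the peak at 1.22 lay almost at that median. The 2 peaks farthest 3′ differed, with 1.12 at chr1:204372982-204373007 and −0.12 at chr1:204372742-204372782 in the authors' deposited table.

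Neighbouring peaks of both genes often had different log ratios. Among the 8 pairs of neighbouring PPP1R15B peaks that did not overlap, the log ratio differed by 0.39 to 1.24, with a median of 0.71, and among its 3 overlapping pairs by 0.09 to 1.11. In PPP1CC the 9 pairs that did not overlap differed by 0.13 to 2.19, and the 2 overlapping pairs by 0.36 and 0.43. Neighbours here are peaks next in order along the genome, and are not always close. The gaps of the pairs that did not overlap ran from 10 to 1210 nt in PPP1R15B and from 0 to 11988 nt in PPP1CC. No such differences are given for other genes. The range of log ratios within PPP1CC was 2.80, wider than in all but 10 of the 160 genes with 5 or more peaks. Within PPP1R15B it was 2.04, against a median range of 1.75 in those genes. A range tends to widen with the number of peaks, and most of the 160 genes had fewer. Only 25 had more than 12 peaks, and 6, PPP1CC and PPP1R15B among them, had 12. The log average and log ratio of the 12 peaks had a Spearman rho of 0.50 in PPP1CC and of −0.34 in PPP1R15B, a description over peaks that share libraries and, in part, reads.

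The other 6 PP1 genes, all regulators, split into 4 above the median gene and 2 below it. PPP1R9B (spinophilin, a scaffold that brings PP1 to actin) had 2 peaks in the 3′ UTR on chromosome 17 with 0.81 and 0.64 in the authors' deposited table. PPP1R14C, an inhibitor of PP1, had 2 3′ UTR peaks on chromosome 6 with 0.37 and 0.75, the first with a log average of −4.63, in the authors' deposited table. In both genes the 2 peaks stood on the same side. PPP1R10 (PNUTS, a nuclear targeting subunit) had a single 3′ UTR peak at 0.55, and PPP1R12A, the myosin targeting subunit, a single one at 0.23 in the authors' deposited table. GENCODE 29 names 1 pseudogene of PPP1R10, which may share its reads.

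PPP1R12C, a relative of the myosin targeting subunit, and PPP1R37, a leucine-rich repeat regulator of PP1, had the lowest log ratios of the PP1 genes and the highest log averages of all members. The authors' deposited table listed a log ratio of −0.58 and a log average of −3.78 for the 3′ UTR peak of PPP1R12C at chr19:55602389-55602422 (minus strand, hg19). For the 3′ UTR peak of PPP1R37 at chr19:45650318-45650342 (plus strand) it listed −0.77 and −3.23 in the authors' deposited table. Of 2213 genes, 132 had a higher log average than PPP1R37 and 194 a higher one than PPP1R12C, so few genes of the table had peaks with higher values. The PP1 group as a whole had a median of 0.56 over 8 genes, 0.39 above the median gene, and the 7 regulators alone had 0.55. With peaks at or above the median log average only, the group median was 0.27 over 5 genes, against 0.17 for all genes with such peaks. These 5 genes do not include PPP1CC, which has no such peak.

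Both genes carried an 8-base match to miR-92 family, as did PPP1R12A, PTPRD and MTMR9, or 5 of the 19 members with a 3′ UTR peak (26.3%), against 9.57% of all genes with one. This match was singled out after the values were seen, and the sites of the 3 PP1 genes are shown. The mature microRNA (RefSeq, GRCh38.p14) has its seed in capitals, and the stretches of the 3′ UTRs (GENCODE 29) have the 7 complementary bases in capitals, each followed by the A that extends the match.
hsa-miR-92a-3p: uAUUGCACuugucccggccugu
PPP1R37: ttttctcaaGTGCAATaaatctatc
PPP1R12C: agggtccatGTGCAATagggaggga
PPP1R12A: tcactgtttGTGCAATatgcattta
In GRCh38 they were chr19:45147063-45147087 (plus strand), chr19:55091026-55091050 (minus strand) and chr12:79775253-79775277 (minus strand). The log ratios of the 5 genes were not alike. PPP1R12A stood at 0.23 with a low log average of −7.75, PTPRD at 0.82 and MTMR9 at −0.15 in the authors' deposited table, against the negative values of PPP1R37 and PPP1R12C.

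**Figure D2:**
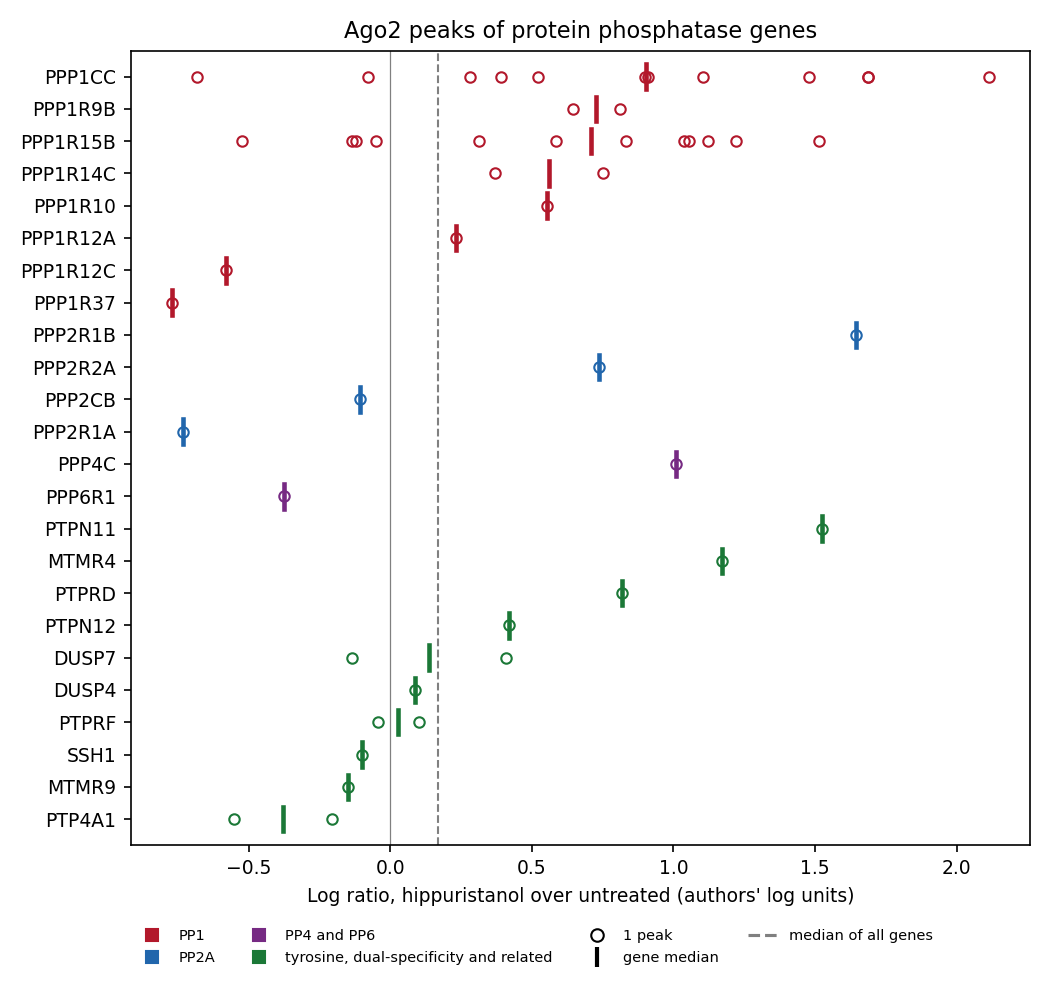
Log ratio of hippuristanol over untreated (x axis, authors' log units) for each Ago2 peak (open circle) of the 24 phosphatase genes, with the gene median as a bar and colours for PP1, PP2A, PP4 with PP6, and the tyrosine, dual-specificity and related genes. The dashed line is the median gene, 0.17, the solid line is 0, and PPP1CC and PPP1R15B spread from −0.68 to 2.11 and from −0.52 to 1.51.

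The PP2A genes had 1 peak each and were split evenly. PPP2R1B, the beta form of the scaffold subunit, had the highest gene value of all members, 1.64 in the authors' deposited table, in a 3′ UTR peak at chr11:111610396-111610421 (minus strand, hg19), and 27 of 2213 genes had a higher value. PPP2R1A, the alpha form of the same scaffold, had −0.73 in a coding peak at chr19:52714597-52714633 (plus strand) in the authors' deposited table. The 2 scaffold genes thus lay at opposite ends of the group, in different regions of their mRNAs. PPP2R2A, a regulatory B subunit, had 0.74 in a coding peak and PPP2CB, the beta catalytic subunit, −0.11 in a 3′ UTR peak in the authors' deposited table. The median over the 4 genes was 0.31.

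PPP4C, the catalytic subunit of PP4, had a coding peak at chr16:30094102-30094130 (plus strand, hg19) with a log ratio of 1.01 and a high log average of −4.22 in the authors' deposited table. PPP6R1, a regulatory subunit of PP6, had −0.37 in a 3′ UTR peak in the authors' deposited table. Of 10 catalytic subunit genes of the PPP family looked for, 3 had a peak among the rows used here (PPP1CC, PPP4C and PPP2CB), and 2 of these 3 lay above the median gene.

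The tyrosine, dual-specificity and related genes had a median of 0.11 over 10 genes, close to the median gene, and 4 lay above it and 6 below. Cytoplasmic tyrosine phosphatases were above it. PTPN11 (SHP2, which transmits growth factor signals to RAS) had 1.52 in a 3′ UTR peak at chr12:112946083-112946128 (plus strand, hg19), with a low log average of −7.70, in the authors' deposited table. PTPN12, a phosphatase of focal adhesion proteins, had 0.42 in the 5′ UTR in the authors' deposited table.

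Receptor tyrosine phosphatases, which span the cell membrane, had values on both sides. PTPRD had 0.82 in a 3′ UTR peak in the authors' deposited table, and PTPRF (LAR) had 0.10 and −0.05 in 2 coding peaks. PTP4A1 (PRL-1, a small phosphatase anchored to membranes) had overlapping 3′ UTR peaks at −0.55 and −0.21 in the authors' deposited table, the lowest gene median of the group at −0.38. Reads of PTP4A1 are uncertain, because GENCODE 29 names 7 pseudogenes of it.

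Dual-specificity phosphatases of MAP kinases lay near the median gene. DUSP7, a cytoplasmic MAP kinase phosphatase, had 2 strong 3′ UTR peaks on chromosome 3 with log ratios of 0.41 and −0.14, given 5′ to 3′, and log averages of −4.42 and −4.55 in the authors' deposited table. DUSP4, a nuclear MAP kinase phosphatase, had 0.09, and SSH1, which reactivates the actin severing protein cofilin, had −0.10 in the authors' deposited table. Myotubularins, which act on phosphoinositide lipids, differed from each other. MTMR4 had 1.17 in a 3′ UTR peak at chr17:56569006-56569044 (minus strand, hg19), and MTMR9, a catalytically inactive partner of other myotubularins, had −0.15 in the authors' deposited table.

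Over all 24 genes the median of the gene medians was 0.32, with quartiles of −0.12 and 0.76, against 0.17, with quartiles of −0.28 and 0.58, over all 2213 genes. With peaks at or above the median log average only, the order turned, to 0.14 for the phosphatase genes, against 0.17 for all genes. Above the median gene were 13 of the 24 phosphatase genes (54.2%), where 50% of all genes lie by construction. A gene median above 1 was listed for 4 of 24 genes (16.7%), PPP2R1B, PTPN11, MTMR4 and PPP4C, against 9.17% of all genes, and below −1 for 0 genes, against 3.43%. These 4 genes had 1 peak each. The group medians were 0.56 for PP1, 0.32 for the PP4 and PP6 pair, 0.31 for PP2A, and 0.11 for the tyrosine and dual-specificity genes, and their order was not stable. With peaks at or above the median log average only, PP2A stood at 0.46 over 2 genes and the PP4 and PP6 pair at 0.32. PP1 then stood at 0.27 over 5 genes, without PPP1CC. With 3′ UTR peaks only, PP2A stood at 0.77 over 2 genes, above PP1 at 0.56, and the PP4 and PP6 pair at −0.37, since PPP4C has a coding peak alone. Each group's gene medians overlapped those of the others, since the PP1 genes spanned −0.77 to 0.90, PP2A −0.73 to 1.64 and the tyrosine and dual-specificity genes −0.38 to 1.52.

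By peak the members stood farther from the rest, and most of that came from PPP1CC and PPP1R15B. Of the 51 peaks, 14 (27.5%) had a log ratio above 1, against 11.3% of all peaks, and 0 were below −1, against 4.22%. PPP1CC and PPP1R15B held 24 of the 51 peaks (47.1%) and 10 of the 14 above 1. Among the other 27 peaks 4 (14.8%) were above 1, close to the share of all peaks. The median over the peaks was 0.42, and 0.23 without these 2 genes, against 0.15 over all peaks.

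The level of Ago2 binding over both treatments was near that of all genes. The median log average of the 24 genes was −6.37, against −6.30 over all genes, with a range of −7.76 (PTP4A1) to −3.23 (PPP1R37). Across the 24 genes the log average and the log ratio had a Spearman rho of −0.20, against −0.03 across all genes, a weak relation that is given as a description. Among the 4 most strongly bound members by log average, PPP1R37 and PPP1R12C had negative log ratios, PPP4C a high one and DUSP7 one near the median gene.

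**Figure D3:**
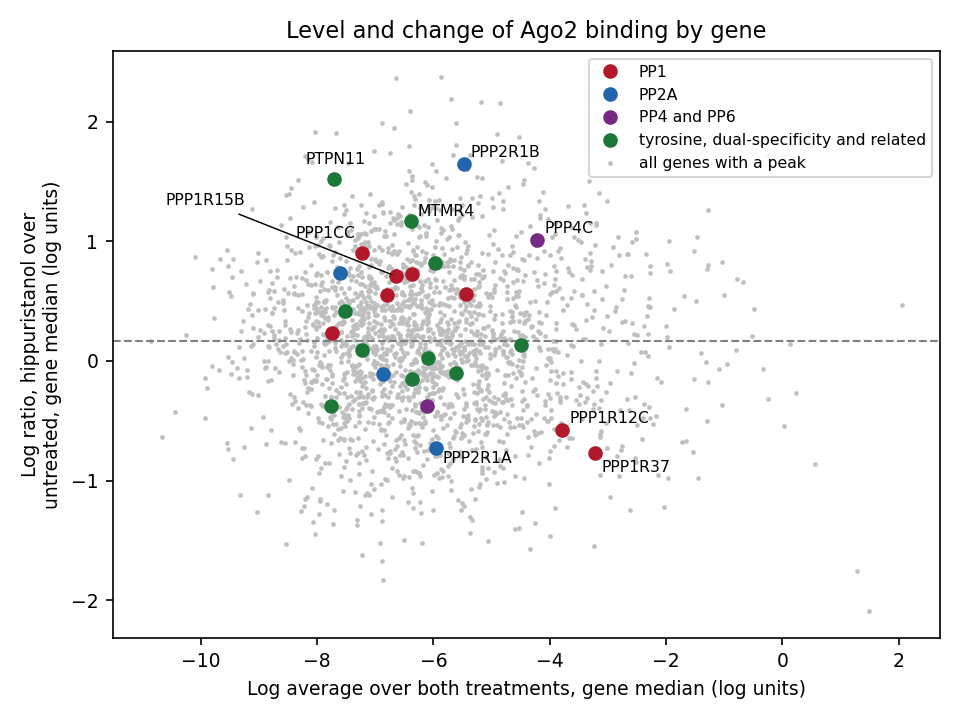
Gene median of the log ratio (y axis) against gene median of the log average over both treatments (x axis), both in the authors' log units, for the 24 phosphatase genes (coloured by group) and all 2213 genes with a peak (grey). The phosphatase genes span −7.76 to −3.23 in log average and −0.77 to 1.64 in log ratio. All genes span −10.86 to 2.06 and −2.09 to 2.37. Of the phosphatase genes, PPP1R37 and PPP1R12C lie farthest right, below the dashed line at 0.17, with PPP4C next and above it.

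Most phosphatase peaks lay in 3′ UTRs. The share was 39 of 51 peaks (76.5%), against 61.3% of all peaks, with 9 (17.6%) in coding sequence, against 20.1%, and 3 (5.88%) in 5′ UTRs, against 3.92%. All peaks include 14.6% in non-coding exons, a class that the name rule largely leaves out because it takes protein-coding genes. Among the 4028 peaks of mRNA exons the 3′ UTR share was 71.8%, nearer to that of the members. The 12 PPP1R15B peaks alone were 12 of the 39, and without them the share of the members was 27 of 39 (69.2%). The coding peaks came from 5 genes (PPP1CC, PPP2R1A, PPP2R2A, PPP4C and PTPRF) and had a median log ratio of 0.74, against 0.20 for all coding peaks. With 4 of the 9 in PPP1CC, that value rests largely on 1 gene.

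Seed matches in the 3′ UTRs were about as frequent in the members as elsewhere. All 19 members with a 3′ UTR peak were matched to a transcript, with a median 3′ UTR of 1596 nt and 40.2% GC, against 1635.5 nt and 39.5% in all 1526 matched genes with a 3′ UTR peak. At least 1 match to the 9 families was found in 15 of 19 members (78.9%), against 77.9% of all these genes, and an 8-base match in 8 members (42.1%), against 52.2%. The motifs, searched on the mRNA strand only, were CTACCTC (let-7), GCACTTT (miR-17 family), TGCTGCT (miR-16 family), TTTGCAC (miR-19), GTGCAAT (miR-92 family), TGTTTAC (miR-30), ATGCTGC (miR-103 family), ACAGGGT (miR-10) and TACTTGA (miR-26). The motifs of the miR-16 and miR-103 families share letters and matched overlapping bases in MTMR4, as did those of miR-19 and the miR-17 family in PPP1R15B and PTPRD. Overlaps were not looked for in DUSP4 and MTMR9. MiR-19 matches were in 9 of 19 members (47.4%), against 27.1%, and miR-92 family matches in 6 (31.6%), against 19.5%. With 8 bases the miR-19 share was 15.8%, against 12.9%, and the miR-92 share 26.3%, against 9.57%. For miR-17 family the 7-base share was 26.3%, against 32.8%, and for miR-16 family 26.3%, against 34.1%. PPP2R1B, PPP1R9B, PPP1R10 and PPP2CB had 0 matches in the 1 transcript searched for each, and their log ratios were 1.64, 0.73, 0.55 and −0.11.

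**Figure D4:**
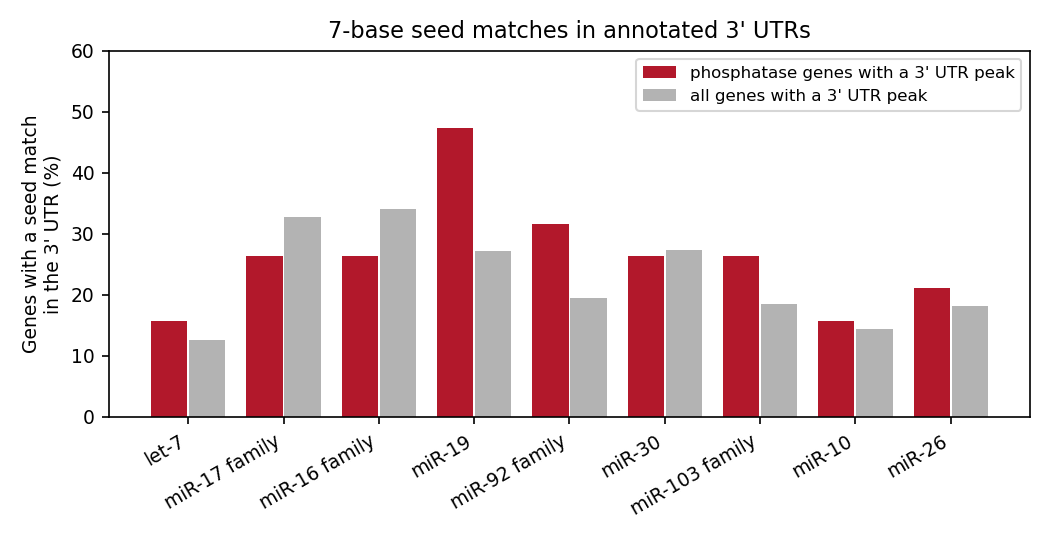
Percentage of genes (y axis) with at least 1 match of 7 bases to a seed in the annotated 3′ UTR, by microRNA family (x axis), for the 19 phosphatase genes with a 3′ UTR peak (red) and all 1526 such genes (grey, members included). The red bar is above the grey one for miR-19 (47.4% against 27.1%) and miR-92 family (31.6% against 19.5%), with 1 gene counting for about 5 points of the red bars.

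Related genes outside the name rule gave a mixed picture. Of 20 partners of PP2A, PP4 and PP6, 8 had peaks, 4 above and 4 below the median gene, with a median of 0.28. STRN3 and STRN, which scaffold PP2A in a kinase and phosphatase complex, stood at 1.17 and −0.50. SET, an inhibitor of PP2A, stood at 0.64. ANKRD52, a subunit of PP6 complexes like PPP6R1, had a median of −0.30 over 19 peaks, and PPP6R1 −0.37 from 1. Of 31 other phosphatases, 4 had peaks, 3 above and 1 below the median gene. CDC25A, which activates cyclin-dependent kinases, stood at 0.53 over 3 peaks. STYX, a catalytically inactive relative of the dual-specificity phosphatases, stood at 0.18. PTPLAD1, at 0.04, is a dehydratase of fatty acid elongation despite its name. Of 18 MAP kinases and their activators, 2 had peaks, 1 above and 1 below the median gene, and the kinase JNK1 (MAPK8) stood at −0.10 from 1 peak.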

How the data were processed

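Of 16 libraries, taken to come from 4 cultures, 12 were Ago2 CLIP and 4 RNA-seq, and the table used here pools the CLIP libraries. Per the file headers, its values are scores that the authors normalized on a log scale, 1 log average over both treatments and 1 log ratio with hippuristanol on top. How peaks were called, filtered, normalized and pooled is not stated in the labels or headers. Tools named in the submitters' processing notes are Bowtie 0.12.8, DESeq and TopHat, and the build is hg19; their roles are not stated. Whether starts count from 0 or 1 is not given, and lengths include both ends.

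Peaks of a gene with identical values were counted once, 50 in all. Each gene was given the median over its peaks. No samples could be tested, so lists are described by counts and medians beside all genes. The medians by gene and group were checked on simulated log ratios, and the grouping of overlapping peaks on the real peaks. The seed search and the counts were not checked in this way. Seed matches came from transcripts of GENCODE 29, found through RefSeq identifiers for 1478 and through symbols for 48 of 1537 genes with a 3′ UTR peak, and microRNAs from RefSeq (GRCh38.p14). All members were named, under a rule that took genes by number of peaks, log average, extremes and catalytic role. Some genes of the related lists are not reported here. Members and lists were chosen with earlier results of these data known. Python 3.11.15 and pandas 2.3.3 were used.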

Additional observations from a re-analysis of the deposited data

How the results depend on the processing

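No paired analysis was possible because the table holds 1 value per peak pooled over cultures, so no replicate could be left out either. Of 61 alternative values, 56 stayed within the exact 95% order-statistic interval of their median over members (the range, in groups too small for one) or within 1.5 times their count. These intervals describe spread over genes, and those of small groups are wide. For PP1, PP2A and the PP4 and PP6 pair the interval was the full range of the group's own gene medians. Alternative medians over much the same genes could hardly leave it, so staying inside says little about how stable these groups are. The count of 0 peaks below −1 could likewise hardly change. The median of the gene medians, 0.32, was 0.14 with peaks at or above the median log average, where all genes had 0.17, so its place above all genes was lost there. It was 0.23 with 3′ UTR peaks only, against 0.16 for all genes, and 0.23 without PPP1CC or without PPP1R15B. The PP4 and PP6 pair went to −0.37 with 3′ UTR peaks only, because PPP4C has only a coding peak. PP1 went to 0.27 with peaks at or above the median log average, below PP2A at 0.46. PPP1CC had no such peak. PP2A went to 0.77 with 3′ UTR peaks only. The 14 peaks above 1 became 5 of 25 (20%) at or above the median log average, against 11.6% of all such peaks, 9 (17.6%) relative to the median of all peaks, against 7.48%, and 4 without PPP1CC and PPP1R15B. Genes with a seed match were 15 with 7 bases and 8 with 8 bases. Alternatives without PPP1R15B, alone or with PPP1CC, and the share of 3′ UTR peaks among mRNA exons were chosen after seeing the data. Depth is unknown, so its limit on single peaks cannot be stated.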
